A study of Oryza sativa Indica Group and Oryza sativa Japonica Group with 8 samples.

Results

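In young rice panicles, 72 probe sets were higher and 78 were lower at a day average of 28 °C than at 23 °C in every one of 4 rice lines, out of 34317 probe sets tested and 57258 on the arrays. A probe set is a group of short array probes that reads 1 transcript. Members of either group had to differ between the temperatures by at least 1.5-fold in intensity + 16, with the same sign in each line. This is 0.585 on the log2(intensity + 16) scale used for every change below. Fold thresholds below are on the same scale. The intensities were first quantile normalized over the 8 arrays, and the dimmest probe sets by mean level were left out. The same rule also took 3 small heat shock protein genes among the higher ones, and the clock genes CCA1 and DTH7, the meiotic recombinase gene DMC1 and C3H43 among the lower ones. These were set aside by name and are not described further. Of all tested probe sets, 0.219% passed the rule upward and 0.239% downward before any name was set aside. Because these temperature changes chose the members, they are given as a description and carry no test.

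RNA came from panicles sampled from the stage of the microspore mother cell until meiosis, when the anther forms the cells that become pollen. The lines were the indica wild type AnN, the indica TGMS (thermosensitive genic male sterile) mutant AnS-1, the japonica wild type ZH11 and the japonica line Os02g12290iL1, in which RNA interference targets Os02g12290. The submitters name both AnS-1 and Os02g12290iL1 as tms5, and their question was whether the ribonuclease RNase ZS1 has a part in mRNA metabolism. Plants of each line stood in a cabinet at the permissive 23 °C (low) or at the restrictive 28 °C (high), with 1 array per line and temperature. The wild type and the tms5 groups therefore held 2 arrays at each temperature, 1 indica and 1 japonica. The RNA interference line is a single line, and the promoter that drives its construct and the number of plants behind an array are not given in the sources used here. The level of Os02g12290 was not analysed here.

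Plants change the activity of many genes with growth temperature within the range they tolerate, well short of heat or cold damage. Secreted proteins of the cell wall and of defence, such as germin-like proteins, chitinases and class III peroxidases, are among the gene families known to follow the environment. Alternative oxidase, in mitochondria, passes electrons to oxygen by a branch that bypasses part of the respiratory chain. Chlorophyll a/b binding proteins gather light for the photosystems and are known to follow light, time of day and temperature.

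The arrays of indica stood apart by temperature before any comparison. Median deposited intensities were 61.3 and 59.2 in AnN and AnS-1 at low temperature, against 141 and 139 at high temperature. The 4 japonica medians lay between 109 and 117. After quantile normalization the median change of all tested probe sets was -0.10 in AnN, -0.13 in AnS-1, -0.00 in ZH11 and -0.01 in Os02g12290iL1. Normalizing within each subspecies instead left 68 higher and 75 lower probe sets, of which 66 and 73 were shared with those described here. Young panicle and floral markers were present on every array: 11 of 12 listed MADS-box genes were found, and their summed intensity ran from 29747 to 40614. Tapetum markers (6 of 8 found) differed with temperature in indica, with a summed intensity that went from 8001 to 23627 in AnN and from 3242 to 10837 in AnS-1. In ZH11 their sum was 31957 at low and 29911 at high temperature, and in Os02g12290iL1 it was 22641 and 17510. The tapetum markers did not move together: in AnS-1 most of the gain was in C4 (374 to 6731), while EAT1 changed by -0.70 and CYP703A3 by 0.07. Meiosis markers (7 of 12 found) went from 4149 to 2556 in AnN and from 5687 to 3097 in AnS-1, against 6140 to 5801 in ZH11 and 6729 to 6041 in Os02g12290iL1. None of these markers passed the rule, and their part in the changes below was not tested. In whole panicles, fewer cells of a type and less RNA per cell cannot be told apart.

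The higher group held 51 probe sets with 1 gene, for 49 genes, and 21 with no gene in the probe table. Their intensities ran from 16.7 to 6201. The median intensity of the group went from 264 to 706 in AnN, from 133 to 529 in AnS-1, from 179 to 419 in ZH11 and from 137 to 378 in Os02g12290iL1. The changes were larger in indica for most of them. The median log2 change reached 1.24 in AnN and 1.69 in AnS-1, and 0.80 in ZH11 and 0.94 in Os02g12290iL1. In 30 of 72 both indica lines changed more than both japonica lines, and in 3 the reverse held. The share of all tested probe sets with that order was not analysed here. Of all tested probe sets, 18.4% in AnN and 19.2% in AnS-1 were at least 1.5-fold higher, against 2.54% in ZH11 and 2.66% in Os02g12290iL1. Larger changes in indica were therefore not particular to the members. The smallest of the 4 changes was in ZH11 for 37 probe sets and in Os02g12290iL1 for 20. A log2 change of at least 1 in all 4 lines was seen for 10 of the 72. The 4 high temperature arrays lay above all 4 low temperature arrays for 32 of the 72. Over all tested probe sets that held for 2.7%, a share that cannot be set against the members because the same contrast chose them.

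The lower group held 36 probe sets with 1 gene, for 32 genes, and 42 with none. Their intensities ran from 10.2 to 4411. The median intensity went from 560 to 147 in AnN, from 520 to 167 in AnS-1, from 445 to 226 in ZH11 and from 453 to 237 in Os02g12290iL1. The larger changes were again in indica. The median log2 change reached -1.42 in AnN and -1.33 in AnS-1, and -0.87 in both japonica lines. In 41 of 78 both indica lines changed more than both japonica lines, and in 6 the reverse held. Of all tested probe sets, 19.2% in each indica line were at least 1.5-fold lower, against 2.15% in ZH11 and 2.55% in Os02g12290iL1. Here too, larger changes in indica were not particular to the members. A log2 change of at least 1 in size in all 4 lines was seen for 9 probe sets. For 45 of the 78 every high temperature array lay below every low temperature array. Over all tested probe sets that held for 5.89%, which again cannot be set against the members, chosen on the same contrast.

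**Figure D1:**
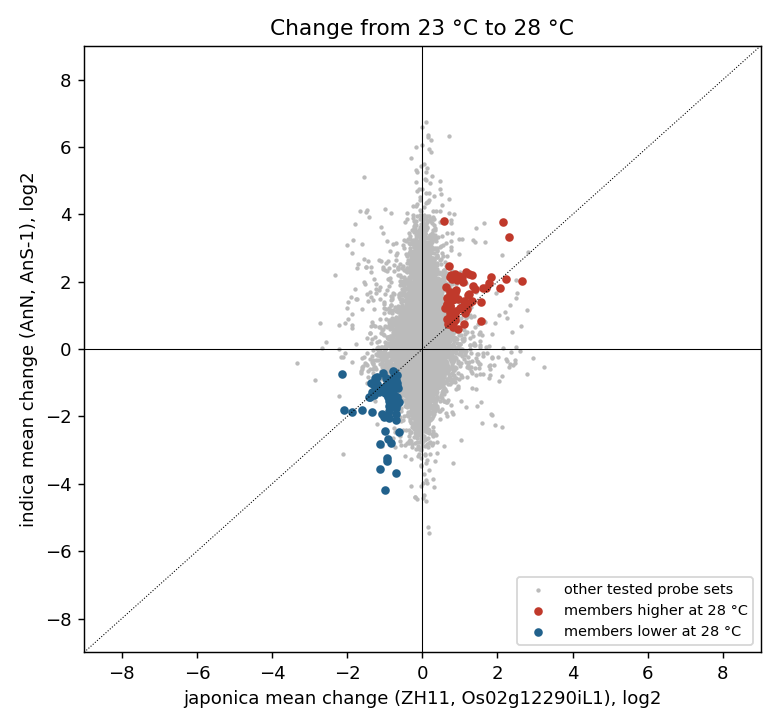
Each point is a probe set, with the mean log2 change from 23 °C to 28 °C in the 2 japonica lines on the horizontal axis and in the 2 indica lines on the vertical axis. Red points are the 72 higher and blue points the 78 lower members, grey points the other tested probe sets, and the dotted line marks equal change: 60 of the red points and 63 of the blue points lie on the side of larger change in indica. The share of grey points on that side was not analysed here, and 1.5-fold changes were more common in indica over all tested probe sets.

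Of the 10 named members of the higher group, those described first encode proteins of the cell wall, of defence and of sugar transport. GER2 (LOC4344839), a germin-like protein, had intensities of 1245 at low and 4055 at high temperature in AnN and of 206 and 1094 in AnS-1. In ZH11 it had 1123 and 3015, and in Os02g12290iL1 295 and 4584. Each line was higher at high temperature, but the arrays overlapped, because AnS-1 at high temperature (1094) lay below both wild types at low temperature. The log2 changes were 1.69 in AnN, 2.32 in AnS-1, 1.41 in ZH11 and 3.89 in Os02g12290iL1, a mean of 2.33 ± 1.11 (SD over 4 lines). Both tms5 lines therefore started from a lower level and changed more than their wild types.

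The monosaccharide transporter gene MST3 (LOC4342198) had the same order of changes, from ZH11 up to Os02g12290iL1. It had 537 and 1627 at low and high temperature in AnN, 163 and 729 in AnS-1, 219 and 426 in ZH11, and 54.1 and 638 in Os02g12290iL1. At low temperature the lowest 2 arrays were those of tms5, and at high temperature the highest was AnN. Its log2 changes were 1.57, 2.06, 0.91 and 3.22 in AnN, AnS-1, ZH11 and Os02g12290iL1, with a mean of 1.94 ± 0.97 (SD over 4 lines).

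Both chitinase genes among the members, whose products cut chitin of fungal walls, were brighter at high temperature in each line but differed in how the lines compared. Cht1 (LOC4338719) had 42.7 and 282 in AnN, 54.3 and 155 in AnS-1, 212 and 511 in ZH11 and 123 and 608 in Os02g12290iL1. The japonica arrays of high temperature were the highest, and AnS-1 at high temperature lay below ZH11 at low temperature, so the arrays overlapped. Rcb4 (LOC4348631) had 91.5 and 608 in AnN, 111 and 443 in AnS-1, 175 and 300 in ZH11 and 150 and 272 in Os02g12290iL1. Here no high temperature array reached down to a low temperature one. Its log2 changes were 2.54 and 1.86 in AnN and AnS-1 and 0.73 and 0.80 in ZH11 and Os02g12290iL1, so that indica changed more than japonica.

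PRX74 (LOC4339222), a class III peroxidase, had 237 and 452 in AnN, 95.8 and 388 in AnS-1, 45.8 and 131 in ZH11 and 60.4 and 162 in Os02g12290iL1. Its log2 changes ran from 0.88 in AnN to 1.85 in AnS-1. Pi21 (LOC4335725), a proline-rich protein known as a susceptibility factor for rice blast, had 322 and 718 in AnN and 67.5 and 487 in AnS-1. Its intensities were 20.4 and 41.5 in ZH11 and 16.8 and 33.8 in Os02g12290iL1, so the gene was dim in japonica at both temperatures. The log2 changes of Pi21 were 1.12 in AnN, 2.59 in AnS-1, 0.66 in ZH11 and 0.60 in Os02g12290iL1. A second tested probe set of Pi21 went the other way in japonica, with -0.35 in ZH11 and -0.10 in Os02g12290iL1 beside 0.66 in AnN and 0.62 in AnS-1.

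AOX1 (LOC4336874), an alternative oxidase of mitochondria, had 159 and 444 in AnN, 119 and 414 in AnS-1, 597 and 934 in ZH11 and 494 and 852 in Os02g12290iL1. The indica arrays of high temperature were still below the japonica arrays of low temperature, so the temperatures overlapped across subspecies and were apart within each. The log2 changes were 1.39, 1.67, 0.63 and 0.77 in AnN, AnS-1, ZH11 and Os02g12290iL1, with a mean of 1.12 ± 0.50 (SD over 4 lines).

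The remaining named members of the higher group act in hormone and stress pathways. ASMT (LOC4346795), an N-acetylserotonin O-methyltransferase of melatonin synthesis, had 67.8 and 113 in AnN, 51.4 and 126 in AnS-1, 365 and 640 in ZH11 and 109 and 615 in Os02g12290iL1. The indica arrays ran from 51.4 to 126 and the japonica arrays from 109 to 640. IAA18 (LOC4339365), a repressor of the Aux/IAA family that binds auxin response factors, had 558 and 980 in AnN, 284 and 772 in AnS-1, 331 and 523 in ZH11 and 281 and 585 in Os02g12290iL1. It was the only member among 62 tested probe sets of auxin genes. Of these, 10 (16.1%) were higher and 14 (22.6%) lower in all 4 lines by sign, beside 12.0% and 17.6% of all tested probe sets. SAP2 (LOC4325591), a zinc-finger protein of the stress-associated family, had 220 and 346 in AnN, 100 and 334 in AnS-1, 106 and 210 in ZH11 and 117 and 188 in Os02g12290iL1. The smallest of its log2 changes was 0.62 in AnN and in Os02g12290iL1, just past the threshold.

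**Figure D2:**
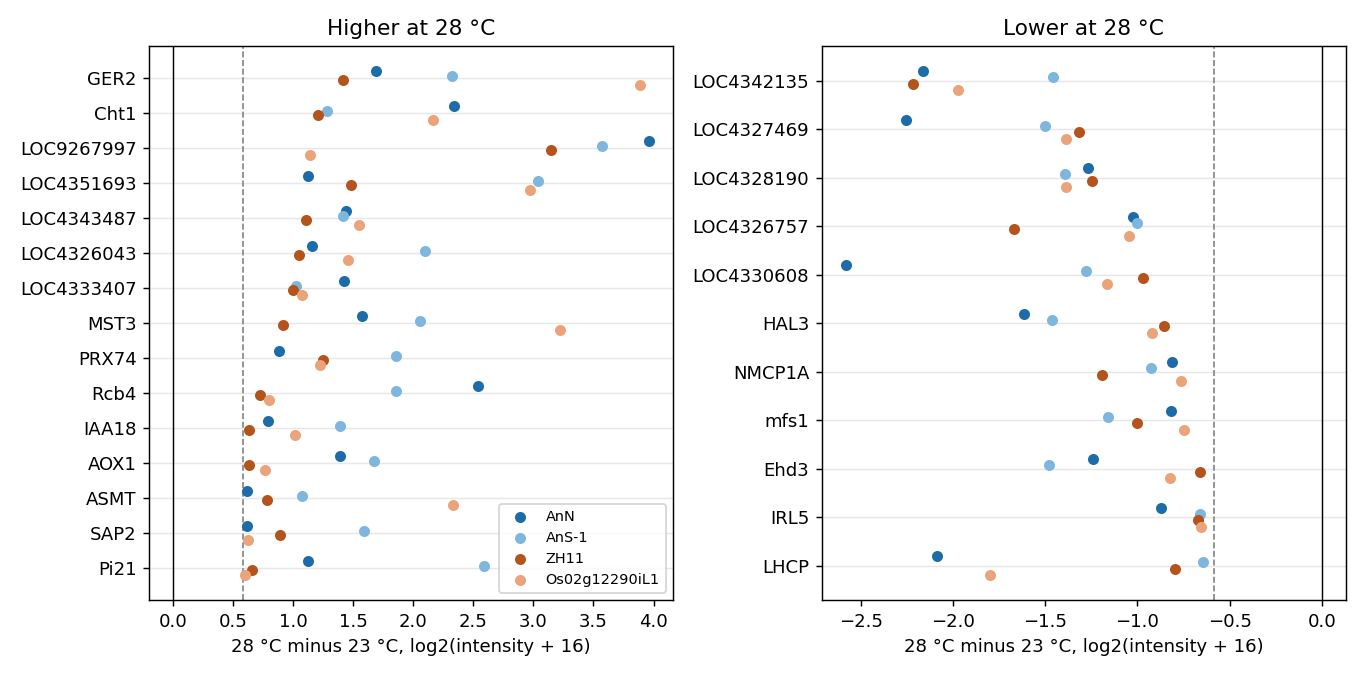
Log2 change from 23 °C to 28 °C in each of the 4 lines (1 point per line, from 1 array per temperature) for the named members and the 5 unnamed genes of largest smallest change in each direction; dashed lines mark the 1.5-fold threshold. For GER2 the points run from 1.41 in ZH11 to 3.89 in Os02g12290iL1, while for LOC4328190 all 4 lie between -1.25 and -1.39.

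Members were ranked by the change in their least changed line. First in the higher group was a probe set with no gene in the probe table. Its intensity went from 202 to 2028 in AnN, from 156 to 1829 in AnS-1, from 162 to 1018 in ZH11 and from 279 to 1235 in Os02g12290iL1. The arrays of the 2 temperatures were far apart, with log2 changes from 2.08 to 3.42. LOC9267997 passed with 2 probe sets. The probe set with the larger changes went from 89.4 to 1626 in AnN, from 124 to 1651 in AnS-1, from 151 to 1465 in ZH11 and from 286 to 649 in Os02g12290iL1. Here the japonica tms5 line stood apart, with a log2 change of 1.14 against 3.15 or more in the other lines. Another tested probe set of this gene went the other way in indica, with -1.03 in AnN and -0.92 in AnS-1, and changed by 0.11 and 0.04 in japonica. LOC4351693 had the opposite order, with 1.13 in AnN and 1.48 in ZH11 against 3.04 in AnS-1 and 2.97 in Os02g12290iL1. LOC4343487 and LOC4326043 were also at least 2-fold higher in every line, with their smallest log2 changes at 1.11 and 1.05. LOC4333407 was just short of a log2 change of 1 in ZH11, at 1.00 after rounding.

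Some members changed evenly and others did not. LOC4352868 went from 1217 to 2903 in AnN, from 1311 to 3037 in AnS-1, from 1613 to 3468 in ZH11 and from 1503 to 2872 in Os02g12290iL1. These 8 arrays fell into 2 ranges by temperature, with no overlap. The other tested probe sets of LOC4352868 were brighter and changed less, 1 of them by 0.02 to 0.09 and 1 by 0.29 to 0.48. By contrast, a probe set with no gene and the lowest rank in the group went from 41.8 to 694 in AnN and from 30.6 to 726 in AnS-1, but from 978 to 1476 in ZH11 and from 988 to 1492 in Os02g12290iL1. It passed the rule by its japonica changes of 0.59, next to indica changes of 3.62 and 3.99.

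In the lower group, the named genes include members that act in coenzyme A synthesis, at the nuclear envelope, in flowering and in light harvesting. HAL3 (LOC4340408) encodes phosphopantothenoylcysteine decarboxylase, an enzyme of coenzyme A synthesis. It had 189 at low and 51.1 at high temperature in AnN, 196 and 60.8 in AnS-1, 114 and 55.9 in ZH11 and 128 and 60.2 in Os02g12290iL1. The high temperature arrays of all lines came together between 51.1 and 60.8, below every low temperature array. The log2 changes were -1.61, -1.46, -0.85 and -0.92 in AnN, AnS-1, ZH11 and Os02g12290iL1, with a mean of -1.21 ± 0.38 (SD over 4 lines).

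Ehd3 (LOC4344443), a PHD-finger protein that promotes flowering in rice, had 429 and 172 in AnN, 517 and 175 in AnS-1, 711 and 443 in ZH11 and 850 and 474 in Os02g12290iL1. Both japonica arrays of high temperature lay above AnN at low temperature, so the arrays overlapped across subspecies. Its log2 changes were -1.24, -1.48, -0.66 and -0.82 in AnN, AnS-1, ZH11 and Os02g12290iL1. The other probe sets of Ehd3 changed less, by -0.17 and -0.38 in AnN, -0.53 and -0.78 in AnS-1, 0.14 and 0.08 in ZH11 and -0.33 and -0.23 in Os02g12290iL1. Which probe set follows the main transcript was not tested. Of 8 tested probe sets of flowering time genes, Ehd3 supplied the single member. By sign, 3 of the 8 (37.5%) were lower in all lines, beside 17.6% of all tested probe sets. Apart from the Ehd3 member, these belong to a gene that was set aside by name.

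LHCP (LOC4333359), a light-harvesting chlorophyll a/b binding protein, had 3667 and 852 in AnN, 1681 and 1072 in AnS-1, 1023 and 583 in ZH11 and 974 and 268 in Os02g12290iL1. The log2 changes were -2.09, -0.64, -0.79 and -1.80 in AnN, AnS-1, ZH11 and Os02g12290iL1, with a mean of -1.33 ± 0.72 (SD over 4 lines). The difference was thus large in the indica wild type and in the japonica tms5 line, and smaller in the other pair. The probe sets of such similar genes may share transcripts, so its value is uncertain as a value of 1 gene. CAB2R, a related gene outside the group, had log2 changes of -1.43, -0.62, -0.19 and -1.05 in the same order of lines. The other marker of photosynthetic tissue found, RBCS, the small subunit of Rubisco, depended on the probe set. The 1 used as marker went the other way in indica, with 1.00 in AnN and 1.98 in AnS-1. It had -0.29 in ZH11 and 0.19 in Os02g12290iL1. Another tested probe set of RBCS had -0.77, -0.03, -0.07 and -0.03 in AnN, AnS-1, ZH11 and Os02g12290iL1, and is 1 of the 7 counted as lower below. The summed intensity of these markers (2 of 4 found) went from 8650 to 5395 in AnN, from 5194 to 5529 in AnS-1, from 4731 to 4134 in ZH11 and from 4418 to 2242 in Os02g12290iL1, and their part in the LHCP values was not tested. Of 10 tested probe sets on the photosynthesis list, which was matched by symbol and older names and holds a few genes of other names, 7 were lower in all 4 lines by sign, for 5 genes with LHCP among them, beside 17.6% of all tested probe sets. These are the same temperature changes that the rule used, so the count is a description. The list median was -0.81 in AnN, -0.61 in AnS-1, -0.24 in ZH11 and -0.40 in Os02g12290iL1.

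NMCP1A (LOC4330487), a nuclear matrix constituent protein, had 1218 and 686 in AnN, 1602 and 835 in AnS-1, 693 and 295 in ZH11 and 824 and 478 in Os02g12290iL1. It is 1 of the members whose largest change was in japonica, with -1.19 in ZH11. Its other tested probe sets did not pass the threshold in all lines, and 1 of them stayed between -0.20 and 0.16. IRL5 (LOC4349464), a leucine-rich repeat protein, had 104 and 49.5 in AnN, 88.0 and 49.8 in AnS-1, 330 and 201 in ZH11 and 341 and 210 in Os02g12290iL1. Its 4 log2 changes, from -0.66 to -0.87, were the most even of the named genes (SD 0.11), while its other probe set ran from -0.46 in ZH11 to 1.00 in AnS-1. The gene listed as mfs1 (LOC4326904) had 771 and 431 in AnN, 968 and 424 in AnS-1, 1292 and 637 in ZH11 and 1190 and 703 in Os02g12290iL1. Its high temperature arrays all lay below its low temperature arrays.

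**Figure D3:**
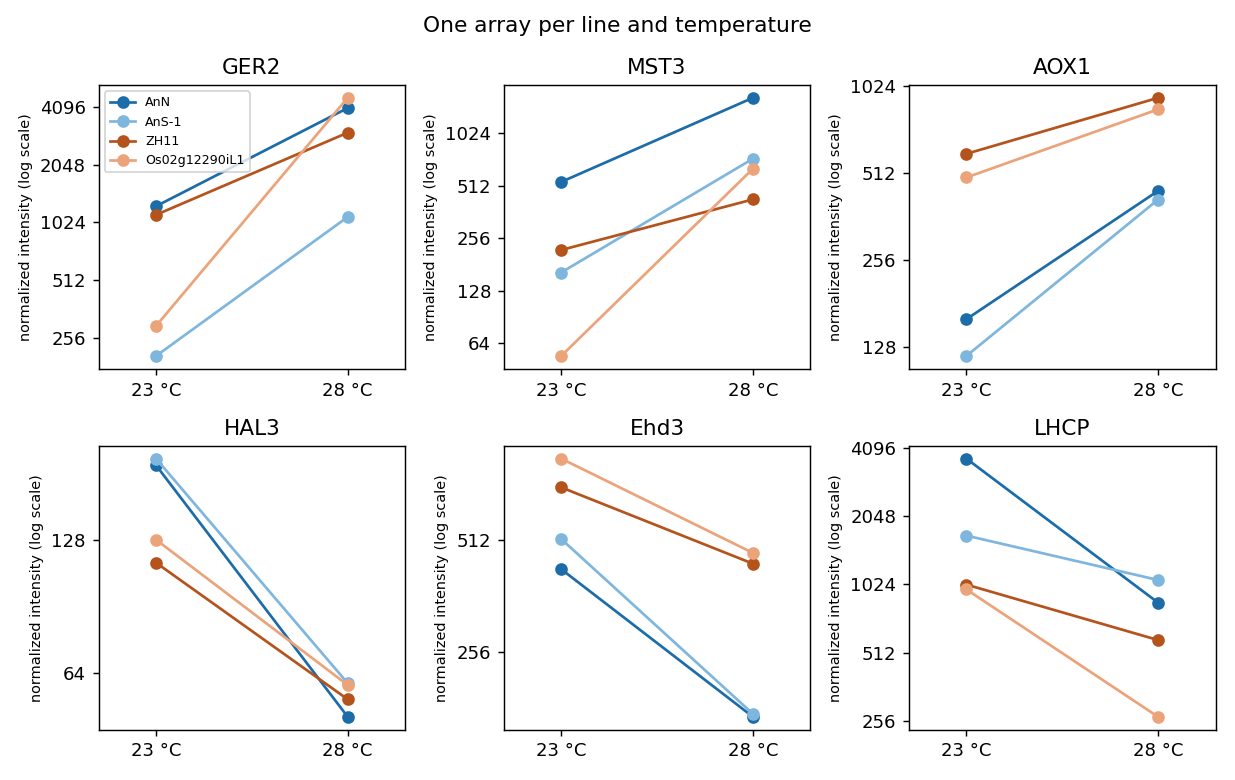
Quantile normalized intensity (log axis) at 23 °C and 28 °C in the 4 lines, 1 array per point, for 3 higher members (GER2, MST3, AOX1) and 3 lower members (HAL3, Ehd3, LHCP). The HAL3 arrays of 28 °C lie together between 51.1 and 60.8, whereas the AOX1 lines keep japonica above indica at both temperatures.

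Among lower members without a name, LOC4342135 was the one whose smallest change was largest. It went from 710 to 146 in AnN, from 437 to 149 in AnS-1, from 511 to 97.2 in ZH11 and from 470 to 108 in Os02g12290iL1. All 4 lines reached a similar low level, and no arrays overlapped. LOC4328190 had the most even changes of the 5 unnamed genes of this kind, -1.27, -1.39, -1.25 and -1.39 in AnN, AnS-1, ZH11 and Os02g12290iL1. A brighter probe set of the same gene went the other way, with 0.07 to 0.30. LOC4327469 had -2.25 in AnN and between -1.32 and -1.50 in the other lines. LOC4326757 had its largest change in ZH11 (-1.67), and LOC4330608 in AnN (-2.58). LOC4330608 went from 1177 to 183 in AnN and from 592 to 234 in AnS-1, and in japonica from 216 to 103 and from 213 to 85.9. The 2 japonica arrays of low temperature therefore lay below AnS-1 at high temperature.

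Membership at the edge of the threshold rested on small differences. Just inside on the higher side were LOC4345329, LOC4337902 and LOC4343558, with smallest log2 changes of 0.59, 0.59 and 0.60, and just outside were LOC4345471, LOC4343433 and LOC4347611, each at 0.58. On the lower side LOC4352654, LOC4351389 and LOC4341551 were inside at -0.59, -0.60 and -0.60. The aquaporin gene PIP2;4 at -0.58, the hexokinase gene HXK2 at -0.56 and LOC4341927 at -0.55 were outside. LOC4352654 and the higher member LOC4352653 were the only members whose genes are neighbours in the reference gene table, among 81 member genes placed there, and they changed in opposite directions.

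Some member genes were read by several probe sets on the same arrays. Of the genes, 2 in the higher and 3 in the lower group passed with more than 1 probe set. Any further probe set of a member gene that was tested had by definition failed the rule, so the counts that follow describe the remainder and do not measure how often probe sets of a gene match. For the higher genes, 23 other probe sets of 13 genes were tested, of which 10 were higher in all lines by sign, 3 passed 1.5-fold in at least 3 lines and 14 in none. For the lower genes, 21 other probe sets of 12 genes were tested. Of these 13 were lower in all lines by sign, 7 passed in at least 3 lines and 7 in none. LOC4333004 had 4 other probe sets, which were all lower in every line and past 1.5-fold in AnN, AnS-1 and Os02g12290iL1. In ZH11 those 4 ranged from -0.22 to -0.38.

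The rule was then applied to 3 lines, and the change in the fourth line, which that shortened rule had not used, was read for the same probe sets. The arrays of the fourth line had still entered the normalization and the filter by mean level. With AnN left out, 137 probe sets were higher in the other 3 lines, and 52.6% of them were at least 1.5-fold higher in AnN, against 18.4% of all tested probe sets. On the lower side it was 67.2% of 116, against 19.2%. With AnS-1 left out the shares were 80% of 90 higher and 75% of 104 lower probe sets, each against 19.2%. In both indica lines these shares were above those of all tested probe sets, but AnN and AnS-1 share the scale difference between temperatures given above.

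In japonica the same reading gave larger ratios on a smaller background. With Os02g12290iL1 left out, 49.0% of 147 higher probe sets passed, against 2.66%, and 58.6% of 133 lower ones, against 2.55%. With ZH11 left out, 18.9% of 381 higher probe sets passed, against 2.54%, and 42.4% of 184 lower ones, against 2.15%. Changes of at least 1.5-fold in the opposite direction were seen in ZH11 for 27 of the 381 and 0 of the 184. In AnN they were seen for 15 of 137 and 5 of 116, in AnS-1 for 6 of 90 and 3 of 104, and in Os02g12290iL1 for 0 in both directions. The lines are not independent of each other in scale or subspecies, and these shares carry no test.

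**Figure D4:**
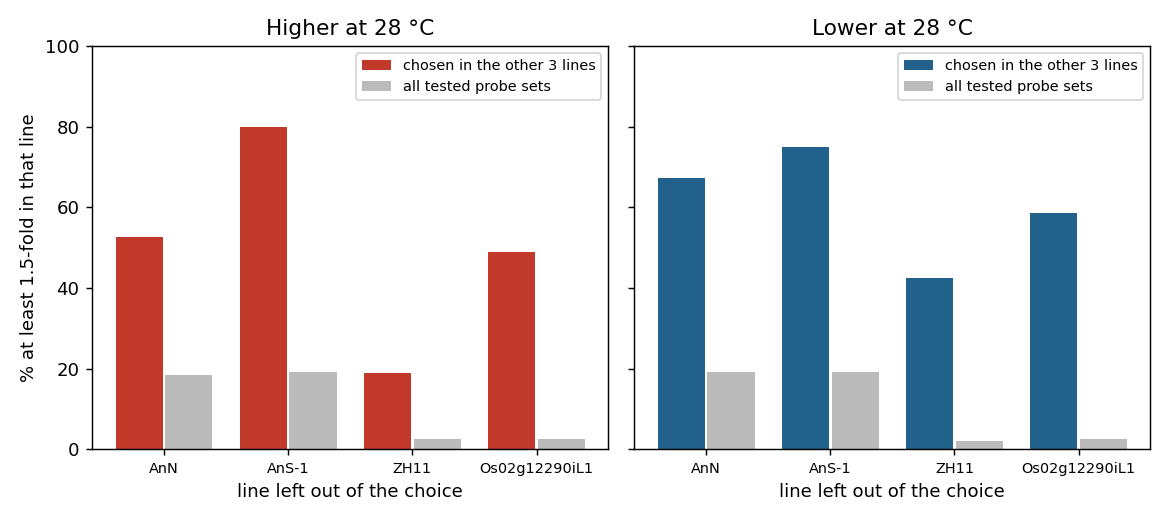
Percentage of probe sets at least 1.5-fold changed in a line, for probe sets chosen by the rule in the other 3 lines (coloured) and for all tested probe sets (grey), higher on the left and lower on the right. The coloured bars run from 18.9% for higher probe sets in ZH11 to 80% for higher probe sets in AnS-1.

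The difference between tms5 and wild type, averaged over both temperatures, was a contrast that the rule did not use, though it came from the same arrays. It was tested with limma over all 34317 probe sets with each combination of subspecies and temperature as a block. At a Benjamini-Hochberg adjusted p under 0.05, 0 probe sets (0.0%) were called, members included, while 2506 of all tested had an unadjusted p under 0.05. For the higher members 25 of 72 had an unadjusted p under 0.05, and the smallest adjusted p was 0.419. Their median difference was -0.28 on the log2 scale, beside 0.03 for all tested probe sets, and 56 of 72 were below 0, against 40.6% of all tested. The same arrays gave the changes that chose the members, so this lean is a description. No member was shown to differ by genotype.

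By sign, the higher members were lower in the tms5 line in all 4 pairs of matched subspecies and temperature for 25 of 72 (34.7%), against 7.25% of all tested probe sets. They were higher in all 4 pairs for 2 (2.78%), against 10.8%. Without the indica pair at low temperature the first count was 28 (38.9%, against 10.7% of all tested). The median difference of the higher members was -0.62 in indica and -0.20 in japonica at 23 °C, and at 28 °C it was -0.31 and -0.11. Each of these pair values shares arrays with the changes that chose the members, so the counts by sign are a description. In the same group the tms5 line changed more with temperature than its wild type in both subspecies for 34 probe sets, and less in both for 13. These are the changes that the rule used, and the share over all tested probe sets was not analysed here. No trait of tms5 can be read from them.

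The gene with the largest difference was LOC4324697. It had 899 in AnN against 192 in AnS-1 at low temperature, and 1473 against 719 at high temperature. In japonica it had 321 in ZH11 against 52.3 in Os02g12290iL1 at low, and 630 against 154 at high temperature. The tms5 array was the lower one in each pair, by -1.85 ± 0.22 (SE) on the log2 scale, with an adjusted p of 0.419 in limma. LOC4334643 differed by -1.52 ± 0.43 (SE, adjusted p = 0.583 in limma), with 2745 and 500 in AnN and AnS-1 and 863 and 129 in ZH11 and Os02g12290iL1 at low temperature. At high temperature it had 6201 and 4488, and 1547 and 1020, so its pairs were closer there. LOC4352653 (-1.74 ± 0.36, SE) and GER2 (-1.41 ± 0.51, SE) also missed the threshold, with adjusted p of 0.504 and 0.664 in limma.

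For the lower members the median difference of tms5 from wild type was 0.11, and 49 of 78 (62.8%) were above 0, near the 59.4% of all tested probe sets. Of the 78, 17 had an unadjusted p under 0.05, with a smallest adjusted p of 0.49 in limma. The tms5 line was higher in all 4 pairs for 19 (24.4%), against 10.8% of all tested probe sets, and lower in all 4 for 1 (1.28%). Leaving out the japonica pair at high temperature brought the first count to 23 (29.5%), beside 25.7% of all tested probe sets, which is close to the background. The limma interaction term, for a genotype difference that differs between subspecies, called 0 of all tested probe sets, members included. The smallest adjusted p of that limma term was 0.735 among the higher and 0.860 among the lower members. These 0 calls are therefore no result about the members.

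**Figure D5:**
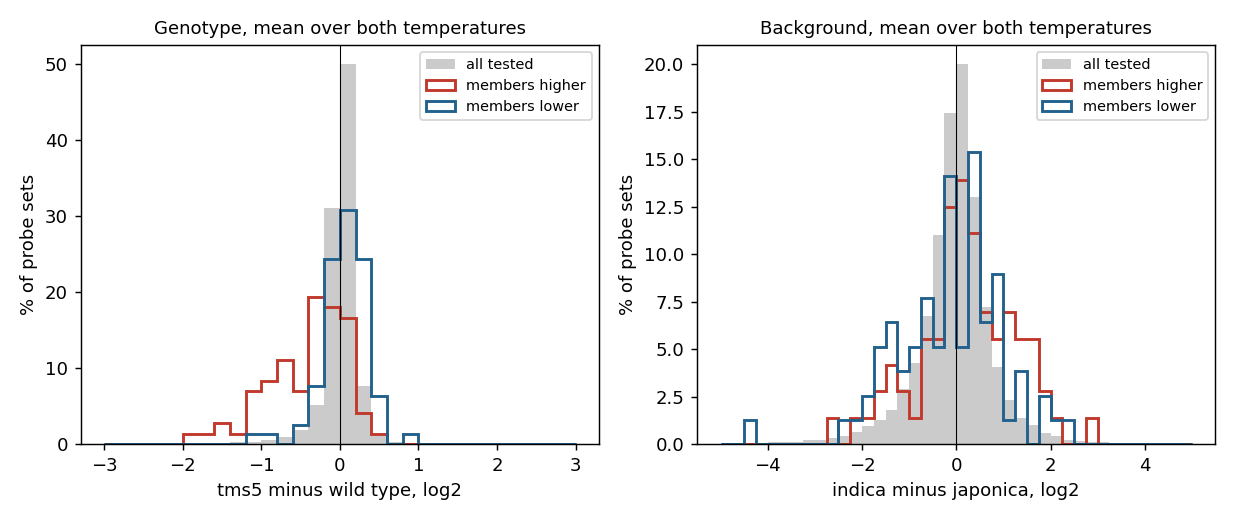
Share of probe sets (%) by the log2 difference of tms5 from wild type (left) and of indica from japonica (right), each the mean over both temperatures, for all tested probe sets (grey), the 72 higher members (red) and the 78 lower members (blue). The red outline on the left leans below 0 (median -0.28), while all tested probe sets have a median of 0.03. The lean is a description, because the same arrays chose the members.

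The mean difference of indica from japonica over both temperatures was also outside the rule. It was called for 57.6% of all tested probe sets at an adjusted p under 0.05 in limma, 29.2% higher and 28.5% lower in indica. Differences of hybridisation or array scale between the subspecies and differences of expression cannot be told apart here. Of the higher members, 37 (51.4%) were called, 23 higher and 14 lower in indica. Of the lower members, 51 (65.4%) were called, 23 higher and 28 lower. Both shares are near the background of their test.

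Single members nonetheless differed widely in level between the indica and the japonica lines used here. Pi21 was higher in indica by 2.89 ± 0.33 (SE, adjusted p = 0.00112 in limma). AOX1 was lower in indica by -1.45 ± 0.08 (SE, adjusted p = 8.77e-05 in limma), and ASMT by -1.90 ± 0.30 (SE, adjusted p = 0.0035 in limma). Cht1 was also lower in indica, by -1.41 ± 0.22 (SE), and PRX74 was higher by 1.36 ± 0.26 (SE). For MST3, IAA18, SAP2, GER2 and Rcb4 the adjusted p in limma lay between 0.0516 and 0.467, and no difference was called.

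All 6 named lower members were called. IRL5 was lower in indica by -1.70 ± 0.07 (SE, adjusted p = 5.03e-05 in limma) and Ehd3 by -1.02 ± 0.07 (SE, adjusted p = 0.000234 in limma). LHCP was higher in indica by 1.27 ± 0.28 (SE, adjusted p = 0.0114 in limma). HAL3 was higher by 0.28 ± 0.06 (SE), NMCP1A higher by 0.93 and mfs1 lower by -0.57. LOC4338646 had one of the largest differences among the lower genes, with 1184 and 550 in AnN and 1249 and 683 in AnS-1, against 174 and 93.2 in ZH11 and 214 and 125 in Os02g12290iL1. Its temperature changes, from -0.71 to -1.08, were alike in the lines although its levels in the subspecies did not overlap.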

How the data were processed

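Total RNA from young panicles was hybridised to 8 Affymetrix rice arrays, 1 per line and temperature. The deposited values are linear intensities per probe set, made by the authors with RMA and Affymetrix Expression Console, as the submitters' processing notes say (versions are not given in the sources used here). How the indica low, indica high and japonica arrays were scaled is not given there either. The design had foreseen log2 values. The unit was taken from the values, and 0 value columns stayed unused. Array number limits the precision.

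The 57258 probe sets were quantile normalized, 64 control probe sets were dropped (57194 left), and values were taken as log2(intensity + 16), which understates the changes at low intensity. Tests ran on the 34317 of highest mean, 60% of them. GEO's platform annotation paired 22436 probe sets with 1 gene (18460 of them tested) and 95 with several. Symbols came from the synonyms of a RefSeq gene table, used for names and neighbours only.

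Genotype and subspecies effects were fitted with limma 3.58.1 in R 4.3.3 on all arrays (3 residual and 2.46 prior degrees of freedom), two-sided, with Benjamini-Hochberg adjustment over all tested probe sets, called under 0.05. Counts used Python 3.11.15, pandas 2.3.3 and numpy 2.4.6. The fits were tested on simulated data. Nothing in the labels says that samples came from separate cultures of plants. With 1 array per line and temperature, the residual of the fit is how the genotype difference varied over subspecies and temperatures. The p-values are set against that variation, which may mix real and technical differences. They do not measure a spread between replicates or between cultivars of a subspecies. The members and the gene lists were chosen with earlier results of these data known. Named genes are every member with 1 gene and a symbol, ranked by smallest change, the 5 largest by that measure without a symbol, and 3 on either side of the threshold per direction; further genes and probe sets named were chosen after their values were seen. Other alternatives tried are in the closing section. Promoter sequences were not analysed here.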

Additional observations from a re-analysis of the deposited data

How the results depend on the processing

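The number of members depended on the settings more than their changes did. With a pseudocount of 64 there were 41 higher and 46 lower probe sets, with a 2-fold threshold 10 and 9, and with a log2 threshold of 0.4 217 and 188. With 1 probe set per gene there were 41 and 21, since probe sets without a gene drop out by construction. The rule without each line in turn took between 90 and 381 higher and between 104 and 184 lower probe sets, with the highest counts without ZH11. The japonica lines alone, an alternative chosen after seeing the data, gave 282 and 283. Pseudocount 1 (93 and 92), no filter (82 and 81), the upper 40% (51 and 64), median centring (69 and 66) and normalization within each subspecies, also added afterwards, stayed within 1.5 times.

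The genotype test called 0 of all tested probe sets in the main fit and between 0 and 50 with an array left out (50 without AnN or without AnS-1 at low temperature); no member was called in any alternative run. Subspecies calls over all tested probe sets numbered 19774, against 31096 with no filter, 12869 with the upper 40%, 12118 without a subspecies by temperature term and between 14379 and 21670 with an array left out. Calls among members, 88 in all, ran from 74 to 106 with an array left out. The subspecies difference turned direction for GER2 (0.18 without Os02g12290iL1 at high temperature, range -1.16 to 0.18 with an array left out) and for Rcb4 (-0.015 without AnS-1 at low temperature, range -0.015 to 0.23), neither of which was called in the main fit. The cause of these differences was not tested. Counts by sign over the 4 pairs, with pairs left out as alternatives added after seeing the data, ran from 26 to 36 for the higher and from 22 to 26 for the lower members.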

Other observations

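Probe sets named OsAffx made up 25 of the 78 lower members and 3 of the 72 higher ones, beside 31.2% of all tested probe sets. Within them, a run of consecutively numbered names, chosen after its values were seen, held 11 of the lower members and 0 of the higher ones, out of 156 tested. Of these 156, 1 has a gene in the probe table. In both japonica lines 42 of them (26.9%) were at least 1.5-fold lower at high temperature, against 0.851% of all tested probe sets, and in both indica lines 45 (28.8%), against 12.2%. Their median log2 changes were -0.23 in AnN, -0.60 in AnS-1, -0.52 in ZH11 and -0.31 in Os02g12290iL1. What these probe sets share beyond their numbering was not analysed here.

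Most other gene lists held no member. All lists were matched by the start of a symbol or older name, so they can hold genes of other roles. Of 38 tested probe sets of antioxidant genes, 9 were higher and 4 lower in all 4 lines by sign, and of 38 of metal transport genes 6 and 4, beside 12.0% higher and 17.6% lower of all tested probe sets. Of 15 tested probe sets on the nitrogen list, 5 were higher and 3 lower in all lines by sign. Of 15 tested probe sets on the list of chaperones other than heat shock proteins, 3 were higher and 2 lower by sign. Most of these 15 were matched by symbols that start with bip, and their role as chaperones was not checked. The list of cold and dehydration factors had medians of 0.65 in AnN, 1.39 in AnS-1, -0.23 in ZH11 and 0.14 in Os02g12290iL1, and none of its 14 tested probe sets passed the rule. Its japonica values went both ways, from -3.38 and -3.18 for RAB21 in ZH11 to 1.65 for rab25 in Os02g12290iL1. Ethylene response and synthesis genes had medians of 1.12 and 1.34 in the indica lines and of -0.03 and 0.16 in the japonica lines, with 0 of 11 passing the rule, but 6 of the 11 probe sets are also on the cold and dehydration list. These differences between the subspecies were not tested.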
